A study of Mus musculus with 2 samples.

Results

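The Hox genes of the 4 mouse Hox clusters were examined for TET2 binding in adipocytes. All 39 protein-coding genes of the GENCODE M21 annotation whose symbol is Hoxa, Hoxb, Hoxc or Hoxd followed by a number were taken, of 21951 protein-coding genes in all. TET2 peaks were taken where their midpoint lay within 1 kb of any transcription start site (TSS) of a Hox gene, inside the gene record, or anywhere between the outer ends of a cluster. That rule gave 21 of the 14103 peaks of the series, and it uses positions only, not the strength of a peak. A homeobox of 180 bp was found in the coding sequence of all 39 genes, so the symbols and the sequence go together.

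The cells were adipose-derived stem cells, grown from the stromal vascular fraction of inguinal white fat of the mouse and turned into adipocytes in culture with IBMX, dexamethasone and insulin. An antibody to TET2 was used to pull down the chromatin it occupied for sequencing (ChIP-seq), and 1 TET2 library was compared by the authors with 1 Input library, which is chromatin sequenced without the antibody step. There are no replicates and no second condition, so the values carry no replicate error and no test was made. Each peak has a −log10 p from the authors' peak caller, which grows with the excess of TET2 fragments over background, and the number of reads in each library is not known from the list. All positions are on GRCm38, and the intervals given with counts and shares are exact 95% intervals that cover counting error only. Cultured cells can hold undifferentiated precursors beside adipocytes, and the peak list cannot tell their chromatin apart.

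Hox genes encode transcription factors that give cells their position along the head-to-tail axis of the embryo. They stand in clusters, all read in the same direction, and the low-numbered genes at one end act nearer the head while the high-numbered genes at the other end act nearer the tail and the tips of the limbs. Fat depots of different body regions keep different sets of active Hox genes in the adult. The homeobox is the part of the gene that encodes the DNA-binding homeodomain. TET2 is an enzyme that oxidises 5-methylcytosine, which in mammals lies mostly in CpG dinucleotides, and it has no DNA-binding domain of its own.

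Sequences from the peak with the largest −log10 p in each cluster are shown because they hold the CpG dinucleotides on which a TET enzyme could act. They are written 5′ to 3′ along the gene with each CpG in capitals. The Hoxa10 stretch is chr6:52234650-52234934 on the minus strand and holds 24 CpGs in 285 bases. The Hoxb2 stretch is chr11:96353063-96353362 on the plus strand, with 39 CpGs in 300 bases. The Hoxc9 stretch, chr15:102981923-102982222 on the plus strand, holds 40 CpGs, and the Hoxd3 stretch, chr2:74746642-74746941 on the plus strand, holds 38.
Hoxa10, first coding exon: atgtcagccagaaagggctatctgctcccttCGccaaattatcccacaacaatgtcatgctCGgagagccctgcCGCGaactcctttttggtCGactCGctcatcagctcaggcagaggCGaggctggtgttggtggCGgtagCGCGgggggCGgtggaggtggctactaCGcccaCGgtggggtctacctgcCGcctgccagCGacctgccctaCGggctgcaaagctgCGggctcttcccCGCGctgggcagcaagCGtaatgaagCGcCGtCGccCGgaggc
Hoxb2, second coding exon: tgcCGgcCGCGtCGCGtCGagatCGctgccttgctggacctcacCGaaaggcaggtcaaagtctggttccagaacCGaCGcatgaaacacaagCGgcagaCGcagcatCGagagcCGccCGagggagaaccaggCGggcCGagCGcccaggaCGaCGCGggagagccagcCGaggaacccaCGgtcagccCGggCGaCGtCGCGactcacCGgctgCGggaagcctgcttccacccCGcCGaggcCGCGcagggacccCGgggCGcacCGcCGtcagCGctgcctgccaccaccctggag
Hoxc9, end of the first coding exon and start of the intron: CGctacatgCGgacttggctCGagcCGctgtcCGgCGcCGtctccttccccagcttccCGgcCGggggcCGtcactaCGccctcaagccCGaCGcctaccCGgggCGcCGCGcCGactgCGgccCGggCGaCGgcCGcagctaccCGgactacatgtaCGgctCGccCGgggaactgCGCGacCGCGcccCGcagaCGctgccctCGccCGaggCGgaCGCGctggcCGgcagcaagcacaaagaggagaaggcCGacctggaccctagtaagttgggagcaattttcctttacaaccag
Hoxd3, last coding exon: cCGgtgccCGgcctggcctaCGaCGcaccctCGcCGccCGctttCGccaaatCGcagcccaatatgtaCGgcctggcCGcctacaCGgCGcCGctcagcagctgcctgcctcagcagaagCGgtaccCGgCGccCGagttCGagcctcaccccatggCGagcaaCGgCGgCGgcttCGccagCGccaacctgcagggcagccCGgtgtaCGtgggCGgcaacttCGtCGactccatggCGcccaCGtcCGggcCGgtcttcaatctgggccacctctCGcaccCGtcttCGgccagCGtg

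The GC content of these stretches was 64.6% at Hoxa10, 71.3% at Hoxb2 and 70.7% at both Hoxc9 and Hoxd3. The ratio of observed to expected CpGs was 0.809 in the Hoxa10 stretch, 1.02 in Hoxb2, 1.08 in Hoxc9 and 1.04 in Hoxd3. In 3 of the 4 stretches CpGs were therefore at least as frequent as the base composition alone would give. Over the whole peaks the ratio was 0.893 at Hoxa10, 0.940 at Hoxb2, 0.945 at Hoxc9 and 0.913 at Hoxd3.

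The clusters were rich in TET2 peaks for their length, while the share of Hox genes with a promoter peak was near that of other genes. The 4 clusters together span 491.815 kb and held 21 peaks, or 42.7 peaks per Mb (26.4 to 65.3), against 5.33 per Mb over all chromosomes (5.24 to 5.42), a ratio of 8.02. The peaks covered 2.1% of the bases of the clusters and 0.253% of the genome. Within 1 kb of a TSS, 7 of the 39 Hox genes had a peak, or 17.9% (7.54 to 33.5), beside 24.6% of all protein-coding genes. Inside the gene record, 14 of the 39 had a peak, or 35.9% (21.2 to 52.8), beside 32.1% of all protein-coding genes. Of the 15479 protein-coding genes whose length lies within the range of the Hox genes, 1853 to 49987 bp, 26.3% had a peak in the gene record. Their median length was 12833 bp, beside 3488 bp for the Hox genes, so the lengths are not matched. The intervals for the Hox genes take in these background shares. In all, 15 Hox genes had a peak at a promoter or in the gene record, 8 of them in the gene record only and 1, Hoxd9, at the promoter only, and 24 had neither. When only the 5′ end of each gene record was used as the TSS, 5 Hox genes had a promoter peak, since the peaks of Hoxa10 and Hoxc4 lie at the starts of shorter transcripts, beside 20.1% of protein-coding genes. With a window of 3 kb the order of the shares turned, with 13 Hox genes, or 33.3%, beside 28.5% of protein-coding genes.

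Peak density differed between the clusters, in the order Hoxd, Hoxc, Hoxb, Hoxa. The Hoxd cluster held 82.6 peaks per Mb (35.7 to 162.8), 15.5 times the genome's density. The Hoxc cluster held 51.8 per Mb (19 to 112.8), the Hoxb cluster 28.7 per Mb (9.33 to 67.1) and the Hoxa cluster 19 per Mb (2.30 to 68.6). The intervals of neighbours in this order overlap, and so do those of Hoxd and Hoxa, so the order itself is not settled by these counts. The interval of Hoxa also takes in the genome's density, while those of the other 3 clusters lie above it. In the 500 kb on each side, the density was 6 per Mb beside Hoxa, 10 beside both Hoxb and Hoxc and 4 beside Hoxd, and 7.5 per Mb (5.06 to 10.7) over all the flanks. The intervals of Hoxa and Hoxb take in the density of their own flanks, while those of Hoxc and Hoxd lie above it. The whole chromosomes held 5.21 peaks per Mb (chromosome 6, Hoxa), 7.71 (chromosome 11, Hoxb), 6.12 (chromosome 15, Hoxc) and 5.93 (chromosome 2, Hoxd).

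**Figure D1:**
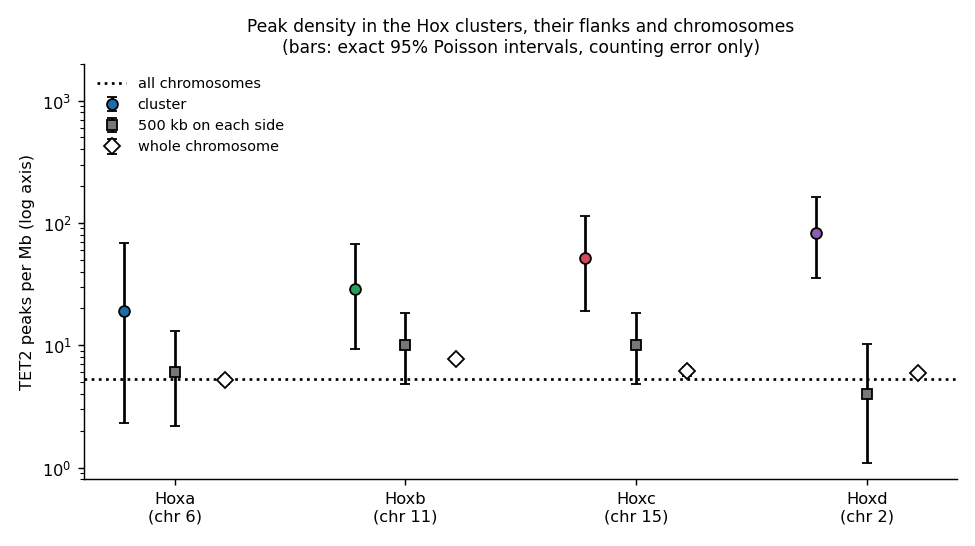
TET2 peaks per Mb, on a log axis, in each Hox cluster (circles), in the 500 kb on each side of it (squares) and on its whole chromosome (diamonds), with exact 95% Poisson intervals as bars and the density over all chromosomes as a dotted line at 5.33. Every cluster lies above its own flanks, from 19 per Mb at Hoxa to 82.6 at Hoxd, and the bars of the clusters overlap one another. The bars of Hoxa and Hoxb take in the density of their flanks.

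When the genome was cut into 27268 windows of 100 kb, 75 windows (0.275%) held 5 or more peaks, 27 held 6 or more and 6 (0.0220%) held 8 or more. The Hoxd cluster is 96.833 kb long and held 8, so few stretches of its length were as dense. The windows start at fixed places, while the cluster was set by its genes, so the figures are a guide to scale only.

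The Hoxd cluster, chr2:74668310-74765142, had 8 peaks spread from end to end, with no free stretch longer than 16.313 kb. A promoter peak was found at 5 of its 9 genes, beside 24.6% of all protein-coding genes. The genes are few, no interval was computed for this count, and Hoxd3 and Hoxd4 share 1 of the peaks. At Hoxd12, which acts in the forming digits, a peak with a −log10 p of 8.68 (chr2:74675006-74675511) had its midpoint in the first coding exon, 245 bp past the TSS. At Hoxd9, which acts in the trunk and limbs, a peak of 5.50 (chr2:74696982-74697356) lay 558 bp before the TSS, over exons of the noncoding genes Gm14396 and Gm28793. These are the strongest and the weakest of the peaks at Hoxd promoters.

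Hoxd3 and Hoxd4, which help to shape the first vertebrae of the neck, have long records that overlap and share a 5′ end. A peak of 5.68 (chr2:74711954-74712459) lay in untranslated exon sequence at that shared start, 277 bp past a TSS of Hoxd4 and 152 bp before the TSS of the antisense gene Hoxd3os1. A peak of 7.07 (chr2:74727185-74727637) lay in the first coding exon of Hoxd4, 337 bp past another TSS. A peak of 6.95 (chr2:74732708-74733169) lay 25 bp past a TSS of Hoxd3. A peak of 8.90 (chr2:74746486-74747099) lay in the last coding exon of Hoxd3, 1070 bp past its nearest TSS and so outside the promoter window, and its sequence is among those printed above. With the overlap of the records, Hoxd3 counts 4 peaks in its gene record and Hoxd4 counts 2 of the same peaks.

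At the other end of the Hoxd cluster, Hoxd1, which is known from sensory neurons, had a peak of 6.98 (chr2:74762698-74763512) with its midpoint 125 bp past the TSS, and 209 bp before the TSS of the noncoding gene Haglr, which is read the other way. This peak was the longest of the clusters, at 815 bp, and held 95 CpGs with a GC content of 72.4%. The last of the 8, with a −log10 p of 6.90 (chr2:74687545-74688102), lay in an intron of the noncoding gene Gm28309, 4101 bp before Hoxd10. Hoxd8, Hoxd10, Hoxd11 and Hoxd13 had no peak at a TSS or in the gene record. Just outside the cluster, beyond Hoxd13, the homeobox gene Evx2 had a promoter peak of 10.2, 247 bp past its TSS.

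The Hoxc cluster, chr15:102921103-103036852, had 6 peaks, among them the 3 with the largest −log10 p of all 21. The largest, 11.6 (chr15:102981753-102982393), lay in the first coding exon of Hoxc9, which specifies the thoracic part of the body, 5041 bp past the nearest TSS. It ranked 518 of all 14103 peaks. The next, 10.7 (chr15:103011773-103012237), ranked 865 and lay in an intron of the Hoxc5 record, 1810 bp before the nearer TSS of Hoxc5. A peak of 10.1 (chr15:102963621-102964172), with rank 1125, lay between genes, 2900 bp before Hoxc10, a gene active in hindlimb and lumbar regions. None of the 3 lay within 1 kb of any TSS.

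Of the other Hoxc peaks, a peak of 7.66 (chr15:103034695-103035132) lay in the first coding exon of Hoxc4, a gene of the neck region, 518 bp past a TSS, and was the only promoter peak of this cluster. Peaks of 5.19 (chr15:102999189-102999662) and 4.12 (chr15:102922081-102922455) lay in introns of Hoxc6, a gene of the forelimb level, and Hoxc13, known from hair and nails. The Hoxc6 peak was 1104 bp before its nearest TSS and the Hoxc13 peak 1165 bp past it, so both were just outside the promoter window. The Hoxc5 record is 49987 bp long and covers Hoxc9, Hoxc8 and Hoxc6, so its count of 3 peaks shares the Hoxc9 and Hoxc6 peaks with those genes. Hoxc8, Hoxc10, Hoxc11 and Hoxc12 had no peak at a TSS or in the gene record.

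The Hoxb cluster, chr11:96194316-96368256, had 5 peaks and none at a Hox promoter. A peak of 8.94 (chr11:96352997-96353430) lay in the second coding exon of Hoxb2, a gene of the hindbrain, 1582 bp past the TSS. A peak of 8.09 (chr11:96304812-96305232) lay in the second coding exon of Hoxb5, which acts at the neck and shoulder level, 1510 bp past the TSS of Hoxb5 and 59 bp past that of its antisense gene Hoxb5os. A peak of 5.54 (chr11:96332558-96332969) lay in an intron of Hoxb3, a gene of the hindbrain and throat region, 4701 bp past a TSS.

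The remaining 2 Hoxb peaks lay between genes. The peak of 6.32 (chr11:96314831-96315207) was 3248 bp before Hoxb4 and 2146 bp before the microRNA gene Mir10a. The peak of 6.21 (chr11:96245372-96245769) stood in the long stretch between Hoxb13 and Hoxb9, 25887 bp before Hoxb9. It was the only cluster peak with most of its bases soft-masked as repeats, at 80.9%, and its value of 6.21 is shared by 1215 peaks of the list. Hoxb1, Hoxb4, Hoxb6, Hoxb7, Hoxb8, Hoxb9 and Hoxb13 had no peak at a TSS or in the gene record.

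The Hoxa cluster, chr6:52155590-52260880, has the most genes, 11, and had the fewest peaks, 2, which stood 64.74 kb apart. A peak of 7.07 (chr6:52234510-52235090) lay in the first coding exon of Hoxa10, a gene of the lumbar region and the uterus, 139 bp past the start of a shorter transcript. A peak of 6.24 (chr6:52169827-52170294) lay in the last coding exon of Hoxa3, which is needed for the thymus and parathyroid. The Hoxa3 peak also lay inside the long record Gm28308. Hoxa2, Hoxa4, Hoxa5, Hoxa6, Hoxa7, Hoxa9, Hoxa11 and Hoxa13 had no peak at a TSS or in the gene record.

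**Figure D2:**
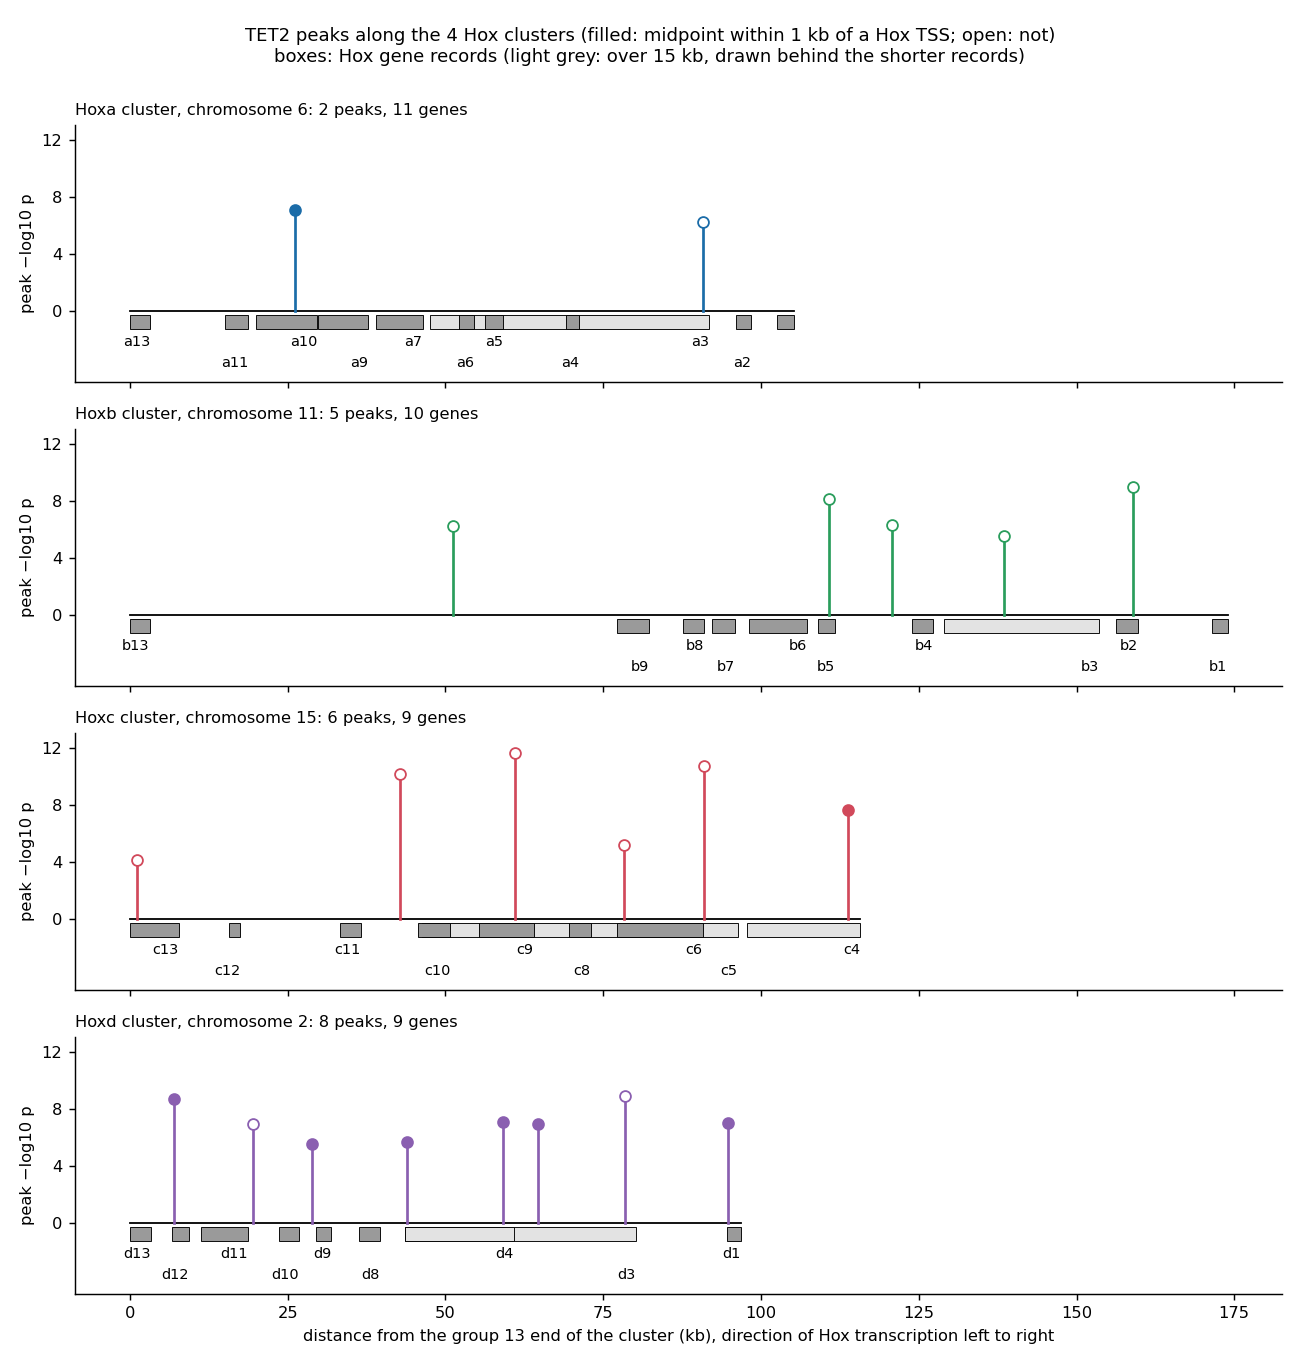
Each panel is 1 Hox cluster, with the distance in kb from its group 13 end on the horizontal axis and the −log10 p of each TET2 peak on the vertical axis. Grey boxes are the Hox gene records (light grey where longer than 15 kb), filled circles are peaks within 1 kb of a Hox TSS and open circles are the others. The 8 peaks of Hoxd are spread along the cluster and 6 of them are filled, the 3 tallest peaks are open and lie in Hoxc, and Hoxa shows 2 peaks only.

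Taken by position, 16 of the 21 peaks lay in a Hox gene record, 8 lay at a Hox promoter and 4 at neither. Gene records of all kinds fill most of the clusters, of which 28.3% is intergenic. The share of cluster bases in Hox records or near Hox TSSs was not computed, so these counts show no preference in placement. From the nearest Hox TSS, 13 peaks lay downstream and 8 upstream, 10 of the 21 were 1 to 5 kb away and 3 were further than 5 kb. The share within 1 kb of a TSS of any gene was 9 of 21, or 42.9% (21.8 to 66.0), beside 41.3% of all peaks, and 39.2% of the bases of the clusters lie that close to a TSS. These 3 shares differ by less than the width of the interval.

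Coding sequence carried a larger share of the Hox peaks than of all peaks, and makes up more of the clusters than of the genome. The midpoint was in a coding exon for 10 of the 21, or 47.6% (25.7 to 70.2), beside 20.1% of all peaks. Coding exons make up 7.38% of the bases of the clusters and 1.38% of the genome. The share of bases thus differs by a larger factor than the share of peaks. Introns held 5 peaks, or 23.8%, beside 29.5% of all peaks, and intergenic sequence held 3, or 14.3%, beside 31.8% of all peaks. Introns make up 44.3% and intergenic sequence 28.3% of the clusters. Untranslated exon sequence held 2 peaks and noncoding exons held 1. Exon classes were laid over the peaks after the first counts had been seen.

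Each of the 10 coding peaks lay in a gene with 2 coding exons. In 6 of them the midpoint was in the first coding exon, before the homeobox, and in 4 it was in the last coding exon, at the homeobox or past it. The first kind was found at Hoxa10, Hoxc9, Hoxc4, Hoxd12, Hoxd4 and Hoxd1, with the midpoint from 2067 bp (Hoxa10) to 585 bp (Hoxd12) before the homeobox, measured along the genome with the intron included. The second kind was found at Hoxb5, Hoxb2, Hoxd3 and Hoxa3. At Hoxb5 the midpoint was in the homeobox and the peak covered all 180 bp of it. At Hoxb2 the peak covered 168 bp of the homeobox and its midpoint was 49 bp past the end. At Hoxd3 the peak covered 54 bp, with the midpoint 253 bp past the end, and at Hoxa3 it covered none, with the midpoint 459 bp past. In all, 3 of the 39 homeoboxes were overlapped by any base of a peak, and only that of Hoxb5 held a midpoint. The share of other stretches of this length that a peak overlaps was not counted. The count thus does not say whether homeoboxes differ from their surroundings.

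**Figure D3:**
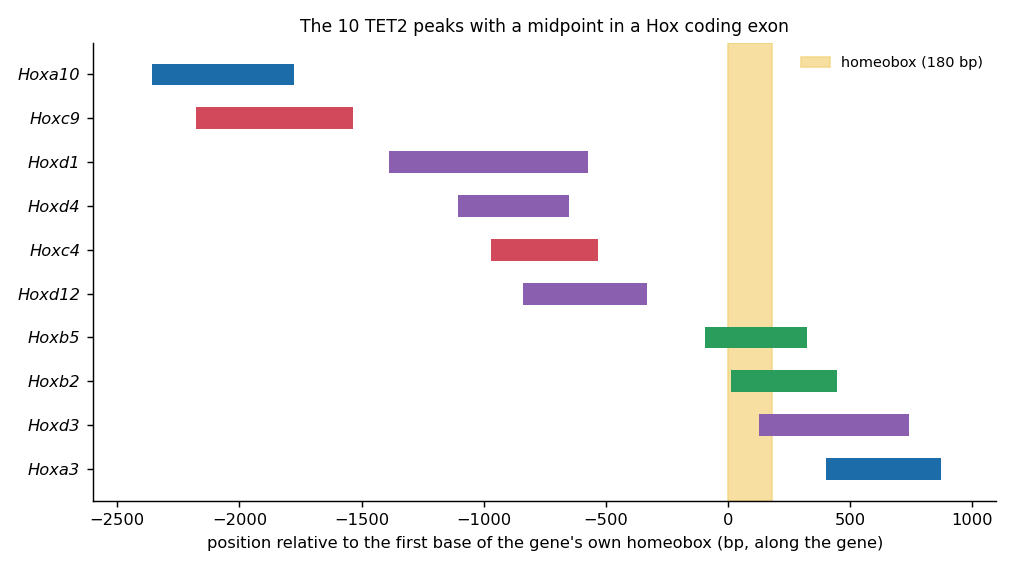
Extent of the 10 TET2 peaks with a midpoint in a Hox coding exon, in bp along each gene from the first base of its own homeobox, which is the yellow band of 180 bp. The bars are coloured by cluster as in the maps of the clusters. The 6 upper peaks end before the band, those of Hoxb5, Hoxb2 and Hoxd3 overlap it, and that of Hoxa3 lies past it.

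Homeobox sequences are alike between Hox genes, so fragments could in principle map to more than 1 place. None of the 21 peaks had another match of at least 100 bp and 90% identity in the genome. Shorter or less alike matches were not counted, so the search does not settle how fragments mapped.

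The peaks of the Hox clusters were of middling strength. Their −log10 p ran from 4.12 at Hoxc13 to 11.6 at Hoxc9 with a median of 6.98 (6.21 to 8.68), beside a median of 6.21 over all peaks, whose middle 50% ran from 5.13 to 7.91 and whose largest value was 335.2. Of the 21, 15 (71.4%) lay above the median of all peaks, 3 (14.3%) reached 10, as did 8.66% of all peaks, and 1 (4.76%) lay under 5, as did 15.5% of all peaks. By cluster the medians were 8.89 in Hoxc, 6.96 in Hoxd, 6.66 in Hoxa and 6.32 in Hoxb, and the ranges overlap. The Hoxc values were the most spread, holding both the lowest and the highest of the 21, while all 8 Hoxd values lay between 5.50 and 8.90. Of the 21, 2 ranked among the first 1000 of the 14103 peaks of the list. The list has 632 distinct values, so ties are common: the peaks of Hoxa10 and Hoxd4 share their value with each other and 59 peaks in all hold it.

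**Figure D4:**
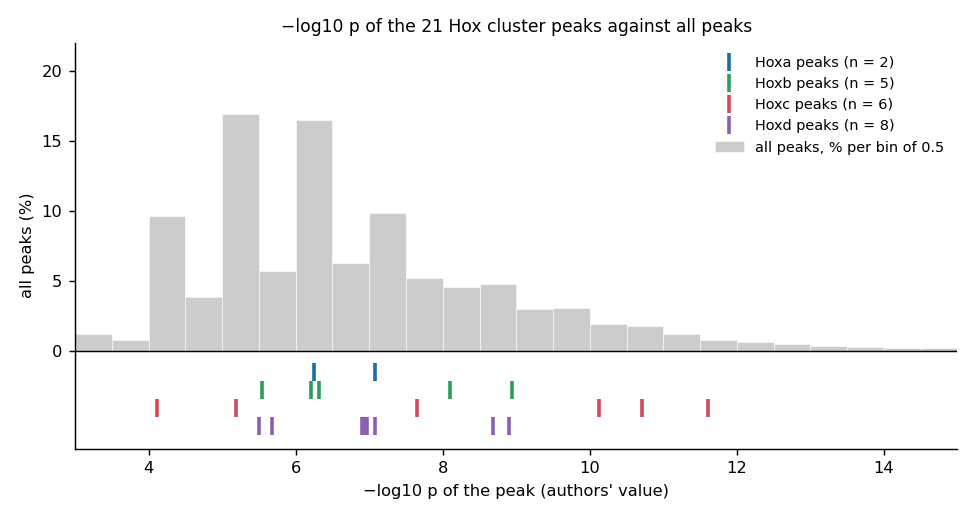
Histogram of the −log10 p of all 14103 peaks (grey, percent of peaks per bin, the few above the right edge not drawn) with the 21 Hox cluster peaks as ticks underneath, 1 row for each cluster. The ticks run from 4.12 to 11.6, within the bulk of the list, and the 3 at 10 or more are all in the Hoxc row.

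The Hox cluster peaks within 1 kb of a TSS had a median −log10 p of 7.07 (n = 9, range 5.50 to 8.68) and the others one of 6.61 (n = 12, range 4.12 to 11.6). Among all peaks the medians were 6.90 within 1 kb of a TSS and 6.21 further away. The 2 sets of Hox peaks overlap over the whole range of the promoter peaks, and the 3 strongest were all over 1 kb from a TSS.

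In base composition the Hox cluster peaks had more CpGs than a typical peak. Their median GC content was 60.9% (58.4 to 66.9), close to the 59.5% of all peaks, and the median ratio of observed to expected CpGs was 0.716 (0.578 to 0.891), beside 0.512 of all peaks. The ratio was highest in the Hoxc9 peak, at 0.945, and lowest in the repeat-rich peak between Hoxb13 and Hoxb9, at 0.112. The difference depended on the distance from a TSS. The 12 cluster peaks over 1 kb from a TSS had a median GC content of 62.4% and a CpG ratio of 0.629. In all such peaks these were 53.6% and 0.343. The 9 cluster peaks within 1 kb of a TSS had a median GC content of 60.1%, below the 65.6% of all such peaks. Their median CpG ratio was 0.819 (0.716 to 0.893), and this interval takes in the 0.775 of all such peaks. Repeats took a median of 5.08% of the bases of a Hox cluster peak and 8.72% of all peaks, and 25.9% of all peaks were at least 50% repeat. The median length was 465 bp in the clusters and 426 bp in the list.

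Hox promoters were then compared by whether they had a peak. The 39 genes have 83 distinct TSSs, and 9 of these had a peak within 1 kb. From 250 bp before to 50 bp after the TSS, the median GC content was 55% (48.3 to 64.3) at the 9 and 54.2% (51.7 to 58.0) at the other 74, and the CpG ratio was 0.744 (0.395 to 0.853) and 0.694 (0.596 to 0.776). The intervals at the TSSs without a peak lie inside those at the TSSs with one. Over all protein-coding genes the contrast was large, with 64.3% GC and a CpG ratio of 0.809 at TSSs with a peak and 53.0% and 0.366 at TSSs without one. The Hox TSSs without a peak thus had a median CpG ratio near that of the Hox TSSs with one and well above that of protein-coding TSSs without one.

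When TSSs were called CpG-rich at a GC content of 55% or more and a CpG ratio of 0.6 or more, a class added after the data had been seen, 32 of the 83 Hox TSSs were CpG-rich and 3 of them had a peak, or 9.38% (1.98 to 25). Of the 33014 CpG-rich TSSs of protein-coding genes 35.0% had one. The upper end of the Hox interval lies under that share. Of the other 51 Hox TSSs, 6 had a peak, or 11.8% (4.44 to 23.9), beside 6.85% of other protein-coding TSSs. TSSs of 1 gene lie close together and share peaks, so they are not separate observations and the intervals are too narrow.

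The same was seen when the clusters were cut into bins of 1 kb. CpG-rich bins made up 9.03% of the bins of the clusters and 0.469% of those of the genome. A peak midpoint fell in 6 of the 44 CpG-rich cluster bins, or 13.6% (5.17 to 27.4), beside 27.9% of the CpG-rich bins of the genome. It fell in 15 of the 443 other cluster bins, or 3.39% (1.91 to 5.52), beside 0.403% of such bins in the genome. Set against bins of the same class, the clusters thus stood above the genome in the bins that are not CpG-rich and below it in the CpG-rich bins, of which they have more. No test of either difference was made, and the ratio of 8.02 for the whole clusters takes no account of these classes.

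Motifs were sought on both strands within 100 bp of each midpoint. TGATNNAT, which Hox and Pbx proteins bind together, was in 0 of the 21 cluster peaks, which allows a share of up to 16.1% (exact binomial), and in 3.64% of all peaks. GGGCGG, bound by SP1 and its relatives, was in 9 of 21, or 42.9% (21.8 to 66.0), and in 26.6% of all peaks. TTGCNNAA, bound by C/EBP proteins, was in 0 of 21 and in 4.39% of all peaks. None of the 3 motifs contains another, and a match describes the letters only.

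The peaks were also counted by position in the cluster, without a test. Hox genes of different clusters with the same number descend from 1 ancestral gene and form 13 paralog groups. Of the 12 genes of groups 1 to 4, 4 had a promoter peak (33.3%) and 7 a peak in the gene record (58.3%), beside the 24.6% and 32.1% of all protein-coding genes. Of the 15 genes of groups 5 to 9, 1 had a promoter peak (6.67%) and 4 a peak in the gene record (26.7%), and of the 12 genes of groups 10 to 13 these counts were 2 (16.7%) and 3 (25%). The promoter counts were lowest in the middle groups. In group 3, all 3 genes (Hoxa3, Hoxb3 and Hoxd3) had a peak in the gene record, and all 3 records are long. Groups 7, 8 and 11 had no gene with a peak at a TSS or in the record. These counts are small, and the low-numbered genes include the longest records apart from Hoxc5.

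The clusters also hold noncoding genes. None of the 7 microRNA genes, among them Mir10a, Mir10b, Mir196a-1 and Mir196a-2, had a peak within 1 kb of its TSS or in its record, beside 5.13% and 0.5% of all microRNA genes of the annotation. Of 36 other genes that do not encode protein, 4 had a promoter peak, or 11.1% (3.11 to 26.1), beside 4.33% of all such genes. These were Hoxb5os, Gm28793, Hoxd3os1 and Haglr, all read against the Hox genes and all with the same peaks described above for Hoxb5, Hoxd9, the Hoxd3 and Hoxd4 start and Hoxd1. A peak lay in the record of 6 of the 36, or 16.7% (6.37 to 32.8), beside 4.45% of all such genes: Hoxb5os, Hoxb3os, Gm28309, Gm14396, Gm28793 and Hoxd3os1. Gm14396 and Gm28793 hold the same peak, and every peak but that of Gm28309 was also counted for a Hox gene. These genes are therefore not separate observations, the intervals are too narrow, and gene lengths were not compared. The long noncoding RNA genes Hotair in the Hoxc cluster and Hotairm1 in the Hoxa cluster had none. Of 3 protein-coding records without a Hox symbol, Gm28308 and Gm28230 had a peak in the record, Gm28230 also at its TSS, and both overlap Hox genes.

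The Hox genes were set beside other families of developmental transcription factors. Of 113 homeobox and T-box genes outside the Hox clusters, 40 had a promoter peak, or 35.4% (26.6 to 45.0), and 54.9% (45.2 to 64.2) had a peak in the gene record. Of 63 Fox and Sox genes, 33.3% (22 to 46.3) had a promoter peak and 47.6% (34.9 to 60.6) a peak in the gene record. The Hox shares of 17.9% and 35.9% were lower than either, with intervals that overlap those of both families. The median record was 3488 bp long in Hox genes, 7921 bp in the homeobox and T-box genes and 5537 bp in the Fox and Sox genes.

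Genes whose products act with Hox proteins or on the Hox clusters were taken from a list of 39. Of these 7 had a promoter peak, or 17.9% (7.54 to 33.5), and 18 had a peak in the gene record, or 46.2% (30.1 to 62.8), beside 24.6% and 32.1% of all protein-coding genes, which both intervals take in. Their median record was 28295 bp long with 7 TSSs, beside 17403 bp and 3 TSSs over all protein-coding genes. None of the 9 genes of the TALE class (Pbx, Meis and Pknox), the DNA-binding partners of Hox proteins, had a promoter peak, and 5 of them had a peak in the gene record. Of the 3 Cdx genes, which switch Hox genes on in the embryo, Cdx1 had a promoter peak of 8.37 at 319 bp past its TSS and Cdx2 a peak of 6.82 at 261 bp past its TSS.

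Of 14 genes for Polycomb proteins, which keep Hox genes silent, 4 had a promoter peak, or 28.6%, near the 24.6% of all protein-coding genes. They were Eed, with a −log10 p of 8.51, Phc1 with 8.10, and Ezh1 and Rnf2 with 5.54 each. Of 7 genes of the Trithorax or MLL group, which keep Hox genes active, 1 (14.3%) had a promoter peak, Dpy30 with 6.24. No promoter peak was found at the 2 genes for H3K27 demethylases, the 3 retinoic acid receptor genes or Ctcf, which encodes a boundary factor.

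**Figure D5:**
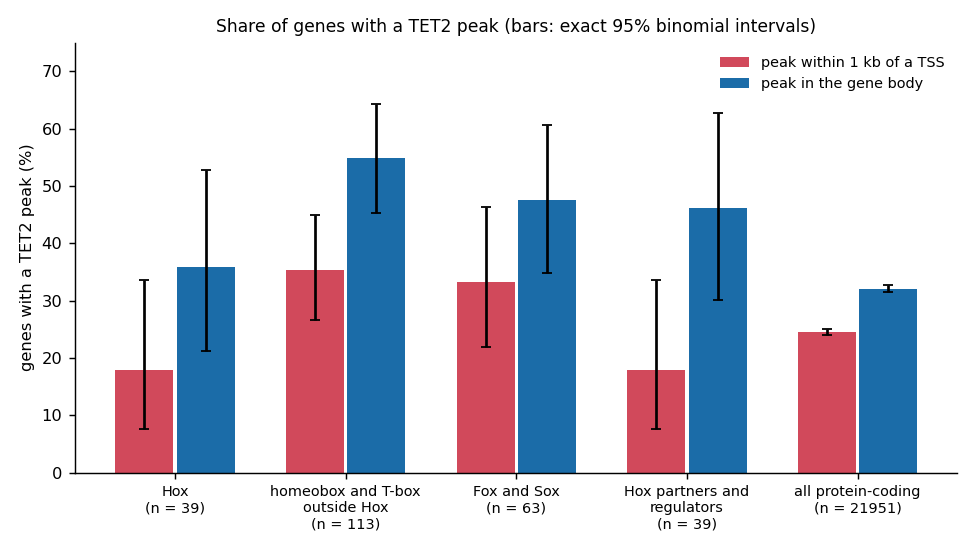
Percent of genes with a TET2 peak within 1 kb of a TSS (red) and in the gene record (blue) for the Hox genes, for 3 lists of other genes and for all protein-coding genes, with exact 95% binomial intervals as bars. Hox genes stand at 17.9% and 35.9%, beside 24.6% and 32.1% of all protein-coding genes, and other homeobox and T-box genes at 35.4% and 54.9%.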

How the data were processed

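Chromatin of adipocytes differentiated in culture was measured by ChIP-seq in 1 TET2 library and 1 Input library. Per the labels and the methods of the study, the authors aligned the reads with Bowtie, called peaks with MACS2 2.1.0 against the Input and deposited intervals with a −log10 p for each. The labels give the build as mm10 and the methods name GRCm39. GRCm38 (mm10), the build of the labels, was used with GENCODE M21. No peak midpoint fell in an assembly gap of GRCm38 and none beyond a chromosome end. Positions on the other build could pass that check too, so it does not settle the build.

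Peaks were placed by midpoint, since the list gives no summits. A promoter peak lay within 1 kb of any TSS of a gene. Homeoboxes were located by translating the coding sequences and finding the 60 codons around the recognition helix. Other copies of a peak were sought with blastn 2.17.0. Positions and sequences were handled with samtools 1.23.1, pysam 0.24.0, scipy 1.17.1 and numpy 2.4.6 under Python 3.11.15, and figures were drawn with matplotlib 3.10.9. The placing of peaks at promoters and in clusters was tested on simulated peaks, and the motif count on short made-up sequences. The other steps were not tested in this way. Shares have exact binomial, counts exact Poisson and medians order-statistic 95% intervals, for counting error only. The reporting summary of the study gives the sequencing yield as a data volume, so the reads of each library are unknown. It also states a p of 1e-05 as the setting for peak calling, while 15.5% of the deposited peaks have a −log10 p under 5 and the lowest is 3.07. The deposited list was used whole, and the stated setting was an alternative.

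The Hox genes, lists and motifs were chosen with earlier results of these data known. Values were given for every Hox gene with a peak, and of the list of partners and regulators for those with a promoter peak. The CpG-rich class, the bins and windows, the coding exons, the homeoboxes and the search for copies were added after seeing the data. Alternatives were stricter thresholds, other windows, TSS sets and cluster ends, placing by any base, and leaving out repeats. The Input library on its own was not analysed here, and 1 gene is not named here.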

Additional observations from a re-analysis of the deposited data

How the results depend on the processing

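Of 37 recomputed values, 24 stayed within the spread or within 1.5 times the count given in the report and 13 moved. Each was compared with its own main value only, so a turn in the order of Hox and background shares was not counted. That order did turn with the window of 3 kb. With peaks at a −log10 p of at least 10, 3 cluster peaks were left, or 6.10 per Mb (13.2 times the genome's 0.462), with 0 Hox genes with a promoter peak beside 2.71% of protein-coding genes, 2 Hox genes with a peak in the record and 0% of the cluster peaks within 1 kb of a TSS. Within 200 bp of a TSS 3 Hox genes (Hoxa10, Hoxd1 and Hoxd3) had a peak beside 14.2% of protein-coding genes, and within 3 kb 13 did (33.3%) beside 28.5%. The share of protein-coding genes was 22.1% with p of at most 1e-05, 25.3% by any base of the peak and 20.1% from the 5′ end of the gene record, where the Hox counts were 7, 9 and 5. The wider window adds genes by its construction, and for the other moves the cause was not tested.

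No paired analysis was possible because the TET2 library stands alone. There was no replicate to leave out. The number of reads per library is unknown, so for a Hox gene without a peak the list says only that none was called. Overlapping Hox records and shared start sites place some peaks in more than 1 gene.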
